A study of Mus musculus with 4 samples.

Results

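The 10 genes described here encode the cytokines that group 2 innate lymphoid cells (ILC2s) are known to make: Il5, Il13, Il4, Il9, Il2, Il3, Il6, Il10, Csf2, and Areg. They were taken by gene symbol from the count table, which lists 27179 genes, and each of the 10 symbols was found there. The ILC2s, sorted as CD45.2+Lin-CD127+KLRG1+ cells, came from the large intestine of WT C57BL/6 mice, which the study's methods describe as C57BL/6J mice of 6 to 8 weeks. All cells were cultured for 5 days with IL-33, IL-25, IL-7, and IL-2 at 10 ng/mL each. They then received vehicle or 100 μM deoxycholic acid (DCA), a secondary bile acid made by gut bacteria, with 2 libraries per group. The paper's methods give a treatment time of 24 hours and the deposited design text gives 16 hours. The number of mice behind each library is not given in the sources used here, nor whether the libraries came from separate cultures, so p-values measure only the spread between these libraries. Both groups were held in the same stimulating cytokines, so the vehicle values are those of activated cells.

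ILC2s have no antigen receptor and respond instead to alarm signals from the epithelium, among them IL-25 and IL-33, by releasing the type 2 cytokines IL-5, IL-13, IL-4, and IL-9. IL-5 feeds eosinophils, IL-13 drives mucus and smooth muscle responses, IL-4 supports type 2 T cells and IgE, and IL-9 acts on mast cells and on ILC2s themselves. Amphiregulin, encoded by Areg, is a ligand of the EGF receptor that supports epithelial repair, and IL-10 restrains inflammation.

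Of these genes, 5 lie on mouse chromosome 11 in the type 2 cytokine locus and its extension. On GRCm38.p6, RefSeq places Il4 at chr11:53612460-53618665, Il13 at chr11:53631323-53634702, Il5 at chr11:53720794-53725103, Csf2 at chr11:54247270-54249899, and Il3 at chr11:54265085-54267279. The others are scattered, with Il9 at chr13:56479277-56482257, Areg at chr5:91139599-91148432, Il6 at chr5:30013114-30019975, Il10 at chr1:131019845-131024970, and Il2 at chr3:37120713-37125954. The GENCODE annotation has an antisense gene overlapping Il5 (Gm12214), another overlapping Csf2 (Gm12223), and Adad1 overlapping Il2. Its Il4 gene overlaps the RefSeq span of Kif3a, while the RefSeq span of Il4 given above overlaps no other GENCODE gene. The strand setting of the counting is not given in the sources used here, and without strand the reads of overlapping partners cannot be told apart.

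RefSeq start sites on GRCm38.p6 were available for 9 of the 10 genes. The 250 bases before the start are shown for Il5 and Il13, the linked type 2 pair, for Il9, the gene with the smallest p, and for Areg. Each runs 5′ to 3′ on the strand of its gene, and capitals mark a GATA match, the letters read by GATA3, the ILC2 lineage factor. The intervals are chr11:53720544-53720793 (plus strand) for Il5, chr11:53634703-53634952 (minus strand) for Il13, chr13:56482258-56482507 (minus strand) for Il9, and chr5:91139349-91139598 (plus strand) for Areg.
Il5: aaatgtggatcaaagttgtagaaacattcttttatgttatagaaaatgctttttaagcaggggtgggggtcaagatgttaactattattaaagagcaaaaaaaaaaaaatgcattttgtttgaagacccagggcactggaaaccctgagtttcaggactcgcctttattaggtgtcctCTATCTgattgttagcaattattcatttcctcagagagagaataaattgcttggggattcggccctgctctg
Il13: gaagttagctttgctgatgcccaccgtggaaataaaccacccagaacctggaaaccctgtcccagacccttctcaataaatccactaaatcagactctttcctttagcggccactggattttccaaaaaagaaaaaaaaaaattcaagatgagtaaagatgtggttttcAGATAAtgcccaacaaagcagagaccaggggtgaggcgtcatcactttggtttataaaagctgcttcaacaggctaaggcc
Il9: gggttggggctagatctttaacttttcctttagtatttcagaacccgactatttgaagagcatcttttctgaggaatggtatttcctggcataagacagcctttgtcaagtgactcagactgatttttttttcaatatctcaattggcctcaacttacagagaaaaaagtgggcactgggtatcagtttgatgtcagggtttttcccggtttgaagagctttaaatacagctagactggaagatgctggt
Areg: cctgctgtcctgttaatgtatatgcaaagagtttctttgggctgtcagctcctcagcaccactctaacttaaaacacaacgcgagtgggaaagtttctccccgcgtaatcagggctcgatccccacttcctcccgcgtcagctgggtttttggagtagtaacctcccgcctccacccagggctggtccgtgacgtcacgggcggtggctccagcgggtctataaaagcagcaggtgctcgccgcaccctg
The search covered AGATAA and AGATAG, as well as TGATAA along with TGATAG, on both strands, which 26.5% of 32851 mouse promoters of this length hold, and the AP-1 motif TGANTCA, which 6.75% hold. A GATA match stood at −72 in Il5 and at −81 in Il13, counted from the start site to the first base of the match. Further GATA matches stood at −101 in Il3, at −247 in Csf2, at −55 in Il6, and at −80 from 1 of 2 starts of Il4. The Il9 window held no GATA match and an AP-1 match at −140, and Il6 had an AP-1 match at −249. Neither motif was found in the windows of Areg or Il2. These matches are descriptions of the letters and not measured binding.

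The libraries held 35838342 and 26564059 counts for vehicle and 32102232 and 244165712 counts for DCA, so DCA replicate 2 was by far the deepest. Values below are counts scaled to library size (CPM) by the TMM method, unless a level per length is named. Across genes, which are not independent replicates, the correlation of log2 values was 0.873 for the vehicle pair, 0.932 for the DCA pair, and between 0.884 and 0.915 across the groups, so libraries of 1 group were not always more alike than libraries of different groups. In the ILC2 marker list, 11 of 12 genes reached at least 1 CPM in every library, and Thy1 did not. The summed level of the list was 10869 and 10542 CPM for vehicle, against 11000.5 and 10919 CPM for DCA. Among the markers, Klrg1, a receptor used in the sort, stood at 688 and 678 CPM with vehicle, against 463 and 356 CPM with DCA. Il1rl1, which encodes the IL-33 receptor, stood at 832 and 876 CPM with vehicle, against 598 and 533 CPM with DCA. Other markers went the other way. Il7r, which encodes CD127 of the same sort, stood at 373 and 350 CPM with vehicle, against 582 and 461 CPM with DCA. Il2ra stood at 1074 and 1230 CPM with vehicle, against 1613 and 1584 CPM with DCA. Id2 and Icos varied little. Some markers of T cells (Cd4, Cd8a), B cells (Pax5), mast cells (Fcer1a, Ms4a2), macrophages (Csf1r, Cd14), and ILC3s (Il23r, Il22) had 0 counts in every library. Other genes of those lists were detected, with Cd3g between 10.5 and 25.5 CPM, Trac between 4.64 and 7.98 CPM, and Cd79b between 37.4 and 55.1 CPM in all libraries. Cd3e reached 1.91 CPM in vehicle replicate 1 and Cd5 1.07 CPM in vehicle replicate 2. Of the epithelial list, Epcam stood between 3.99 and 7.85 CPM in all libraries, and Krt18 reached 6.41 CPM in vehicle replicate 2. Mcpt8, a basophil protease, stood between 3.50 and 4.62 CPM in 3 libraries and at 0 in DCA replicate 2. The part of such cells in the cytokine values was not tested. In bulk libraries, fewer cells that make a transcript and less of it per cell cannot be told apart.

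Il5 dominated the cytokine mRNA. It took 0.905% of all counts in vehicle replicate 1 (95% Wilson interval 0.901 to 0.908) and 0.761% in vehicle replicate 2 (0.758 to 0.765). With DCA it took 1.003% (0.999 to 1.006) and 1.214% (1.213 to 1.216). The intervals cover counting error only and treat each count as an independent fragment, and the gaps between libraries of 1 group are far wider. Per transcript length, on a TPM scale, Il5 was the second most abundant gene in 3 libraries and the fourth in vehicle replicate 2, with values of 11302 and 8979 for vehicle and 12192 and 13792 for DCA.

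The other cytokines followed at a distance. On the same per-length scale, the vehicle means after Il5 were 884 ± 376 (SD, n = 2) for Il9, 805 ± 74.1 for Areg, 762 ± 91.8 for Il10, 509 ± 68.5 for Il4, 416 ± 61.3 for Il13, and 222 ± 134 for Csf2. The vehicle libraries of Il9, Areg, and Il10 overlapped one another, while both Il10 values lay above both Il4 values. Il4 and Il13 were nearly level in vehicle replicate 1, at 460 and 459. With DCA, Il9 stood clear in second place at 2401 ± 682 (SD, n = 2). Behind it came Il4 at 579 ± 130.5, Areg at 516 ± 221.5, Il10 at 477 ± 27.0, Il13 at 418 ± 198, and Csf2 at 340 ± 15.9, and each of these overlapped its neighbour in the order. Il6, Il3, and Il2 brought up the rear in both groups, with no library above 43.5 for Il6, 4.12 for Il3, or 0.212 for Il2. Il9 ranked 272nd and 137th of all genes per length in the vehicle libraries and 63rd and 38th in the DCA libraries. Areg ranked 174th and 219th with vehicle and 249th and 508th with DCA.

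**Figure D1:**
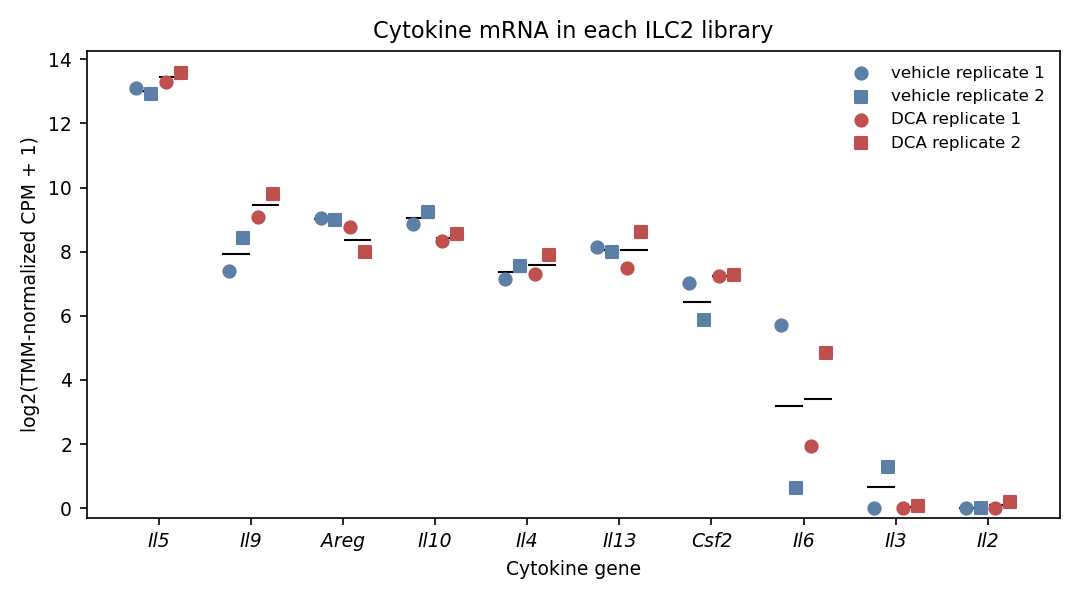
The vertical axis gives log2(TMM-normalized CPM + 1) and the horizontal axis the 10 cytokine genes. Each symbol is 1 library (blue, vehicle; red, DCA; circle, replicate 1; square, replicate 2) and each bar is the mean of 2 libraries. Il5 lies far above the rest in every library, both DCA libraries lie above both vehicle libraries for Il9, and the 2 libraries of a group lie far apart for Il6.

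The question of the design is whether DCA changes the transcripts of these cells. The quasi-likelihood test of edgeR was run on the 11184 genes averaging 1 CPM or more, and 8 of the 10 cytokine genes passed that filter. None of the 8 passed an adjusted p of 0.05 (edgeR, Benjamini-Hochberg adjusted p = 0.999 for each), where 0% of all genes tested did. At an unadjusted p under 0.05 there were 2 of 8, Il9 (higher) and Il10 (lower), where the share of all genes was 4.27%. Both DCA libraries lay above both vehicle libraries for 3 of the 8 (Il5, Il9, and Csf2), against 18.6% of all genes. Both lay below for 2 of the 8 (Il10 and Areg), against 14.7% of all genes. The groups overlapped for Il13, Il4, and Il6. The median log2 fold change of the 8 genes was 0.17, and that of all genes tested was 0.0080. An exact two-sided permutation test on 2 against 2 libraries cannot give a p below 0.333, so it can call no single gene.

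Among the type 2 cytokines of the chromosome 11 locus, Il5 stood at 8858 and 7719 CPM with vehicle, against 9953 and 12321 CPM with DCA. The DCA libraries were both higher, the nearest pair by 1.12-fold. The means were 8288 ± 806 and 11137 ± 1675 CPM (SD, n = 2), a log2 fold change of 0.43 ± 0.18 (SE). Here and below the fold change is the edgeR estimate. The SE is that of the difference of mean log2(CPM + 1), which is a different estimate. Il13 stood at 282 and 251 CPM with vehicle, against 178 and 391 CPM with DCA. Its DCA libraries thus bracketed the vehicle libraries, differing from each other by 2.19-fold, and its log2 fold change was 0.09 ± 0.57 (SE). Il4 stood at 142 and 189 CPM with vehicle, against 156 and 236 CPM with DCA, with overlapping groups and a log2 fold change of 0.25 ± 0.36 (SE). For Il13 and Il4 the sign turned when DCA replicate 2 was left out, to −0.58 and −0.08.

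The gene with the largest difference and the smallest p of the 8 was Il9. It stood at 169 and 345 CPM with vehicle, against 546 and 898 CPM with DCA. Both DCA libraries were higher, the nearest pair by 1.58-fold, although the vehicle libraries themselves differed by 2.04-fold. The means were 257 ± 124 and 722 ± 248.9 CPM (SD, n = 2), a 2.81-fold higher level with DCA and a log2 fold change of 1.49 ± 0.63 (SE). Its unadjusted edgeR p was the 65th smallest of 11184 genes. The call turned on the method. With no filter on low counts, Il9 had an edgeR adjusted p of 0.000399, where 0.203% of 17706 genes passed, and with DESeq2 an adjusted p of 0.00639, where 1.13% of the filtered genes passed. Without vehicle replicate 1, the library with the least Il9, the log2 fold change was 1.04, and without vehicle replicate 2 it was 2.10. With the deepest library, DCA replicate 2, left out it was 1.09.

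Il10 stood at 465 and 606 CPM with vehicle, against 319 and 378 CPM with DCA. Both DCA libraries were lower, the nearest pair by 1.23-fold. The means were 536 ± 99.1 and 348 ± 41.8 CPM (SD, n = 2), a log2 fold change of −0.62 ± 0.23 (SE). Areg stood at 531 and 511 CPM with vehicle, against 434 and 254 CPM with DCA. Its vehicle libraries were close together and both DCA libraries were lower, the nearest pair by 1.18-fold and DCA replicate 2 by far more. The means were 521 ± 14.02 and 344 ± 127 CPM (SD, n = 2), a log2 fold change of −0.60 ± 0.39 (SE), and without DCA replicate 2 it was −0.26. The summed macrophage and monocyte list, whose cells also make IL-10, moved the same way, at 25.8 and 24.05 CPM with vehicle, against 7.30 and 10.2 CPM with DCA. Nearly all of it was Cd68, while Csf1r and Cd14 were at 0 and Lyz2 did not exceed 0.0083 CPM, so 1 of the 7 markers reached at least 1 CPM in every library. The lineage mix that the methods give for gating ILCs contains CD11b and CD11c, and the purity after the sort is not given in the sources used here. The part of macrophages and monocytes in the Il10 and Areg values was not tested.

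Csf2, which encodes the myeloid growth factor GM-CSF, stood at 129 and 57.2 CPM with vehicle, against 149 and 153 CPM with DCA. The DCA libraries nearly coincided and were both higher, but the vehicle libraries differed by 2.26-fold. The log2 fold change was 0.70 ± 0.58 (SE), and it was 0.23 when vehicle replicate 2 was left out and 1.37 when vehicle replicate 1 was. Il6, a cytokine of acute inflammation, was the least repeatable, at 52.0 and 0.53 CPM with vehicle, against 2.84 and 27.9 CPM with DCA. Its counts were 1904 and 14 in the vehicle libraries and 92 and 6726 in the DCA libraries, a 97.3-fold gap within the vehicle group and a 9.82-fold gap within the DCA group. No direction can be given for it. Its log2 fold change was −0.77 in edgeR, while the difference of mean log2(CPM + 1) was 0.23 with an SE of 2.94.

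Il3 and Il2, the hematopoietic growth factor and the T cell growth factor, lay under the filter. Il3 had 0 and 38 counts in the vehicle libraries and 0 and 10 counts in the DCA libraries, or 1.45 CPM in vehicle replicate 2 and 0.042 CPM in DCA replicate 2. Il2 had 34 counts in DCA replicate 2, or 0.141 CPM, and 0 counts in the other 3 libraries. Where 0 reads were counted, a level of up to 3 counts is possible, or 0.0820 and 0.115 CPM for vehicle replicates 1 and 2 and 0.0928 CPM for DCA replicate 1. The Il2 level in the deepest library was thus close to what the shallower libraries could miss. Without the filter, edgeR gave both an adjusted p of 0.954.

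**Figure D2:**
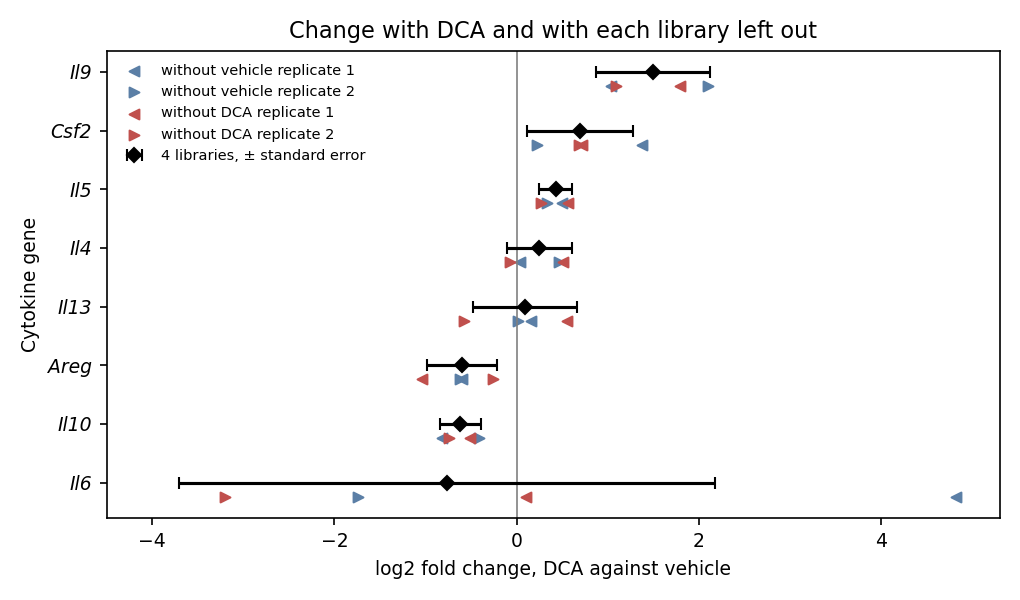
The horizontal axis gives the log2 fold change of DCA against vehicle for the 8 cytokine genes tested. Black diamonds are the 4-library edgeR values with ± 1 standard error of the difference of mean log2(CPM + 1). Triangles below them are the values with 1 library left out. Il9, Csf2, and Il5 stay above 0 and Areg and Il10 below 0 with any library left out, while Il4, Il13, and Il6 cross 0.

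Relative output was read within each library, as the share of each gene in the summed per-length level of the 10 genes. That sum was 14753 and 12771 in the vehicle libraries and 16360 and 19109 in the DCA libraries on the TPM scale, higher in both DCA libraries. Without Il5 it was 3452 and 3791 with vehicle and 4168 and 5317 with DCA. The share of Il5 was 73.5% ± 4.45 (SD, n = 2) with vehicle and 73.3% ± 1.66 with DCA. On this scale the Il5 share differed between the groups by far less than between libraries of 1 group. Without division by length it did not, as Il5 then took 83.3% and 79.7% of the counts of the 10 genes with vehicle and 84.8% and 84.1% with DCA.

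The makeup of the remainder differed more. Il9 took 4.19% and 9.01% of the sum in the vehicle libraries and 11.7% and 15.1% in the DCA libraries, so its DCA shares were both higher. Areg took 5.81% and 5.89% with vehicle and 4.11% and 1.88% with DCA, and Il10 took 4.72% and 6.47% with vehicle and 2.80% and 2.60% with DCA. The shares of Areg and Il10 were lower in both DCA libraries. Those of Il4 (3.12% and 4.36%, then 2.98% and 3.51%), Il13 (3.11% and 2.92%, then 1.70% and 2.92%), and Csf2 (2.15% and 1.00%, then 2.15% and 1.72%) overlapped between the groups. Il6 took at most 0.295% of the sum in any library, and Il3 at most 0.032%. The shares were not tested, and a rise in the share of 1 gene lowers the others by construction.

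**Figure D3:**
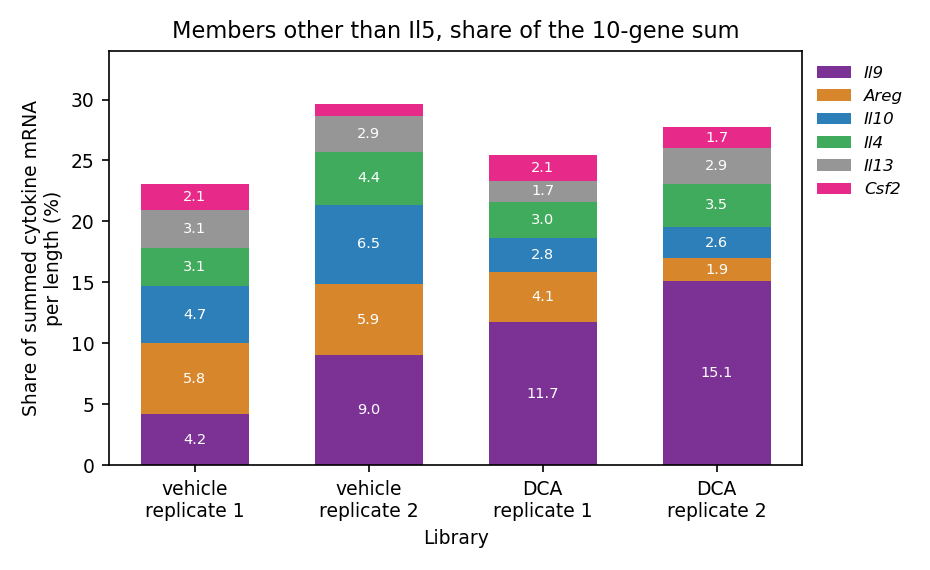
Stacked bars give, for each library, the share in percent of the summed per-length cytokine level taken by the 6 genes after Il5. The Il9 segment grows from 4.2% and 9.0% in the vehicle libraries to 11.7% and 15.1% in the DCA libraries, and the Areg and Il10 segments are smaller in both DCA libraries.

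Ratios within a library do not depend on library scaling. Per length, Il9 was 0.0547 and 0.128 of Il5 in the vehicle libraries and 0.157 and 0.209 of Il5 in the DCA libraries. The ratio of Il9 to Areg was 0.721 and 1.53 with vehicle and 2.85 and 8.03 with DCA, so Il9 was the more abundant of the pair in 3 libraries and the less abundant in vehicle replicate 1. The ratio of Il9 to Il13 was 1.35 and 3.09 with vehicle and 6.90 and 5.17 with DCA. For each of these Il9 ratios, the DCA libraries both exceeded the vehicle libraries. The ratio of Il10 to Il5 was 0.0617 and 0.0921 with vehicle and 0.0376 and 0.0360 with DCA, lower in both DCA libraries, and Areg to Il5 went the same way, at 0.0758 and 0.0838 against 0.0551 and 0.0260. Il13 to Il5, the pair usually read together as ILC2 output, was 0.0406 and 0.0415 with vehicle and 0.0228 and 0.0405 with DCA, and only DCA replicate 1 stood apart. Il4 to Il13 was 1.002 and 1.495 with vehicle and 1.75 and 1.203 with DCA. The order of Il4 and Il13 depends on the Il4 transcript length, since with the union of all Il4 exons its share in the vehicle group was 2.34% and that of Il13 was 3.06%.

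No neighbour of the locus on chromosome 11 was called. Of 13 neighbouring genes listed, 8 were tested, 0 passed an adjusted p of 0.05 in edgeR, 0 had an unadjusted p under 0.05 (4.27% of all genes), and both DCA libraries lay above (18.6% of all genes) or below (14.7%) both vehicle libraries for 0. Their standard errors ran up to 1.86 on the log2 scale (P4ha2), so the absence of calls does not show equal levels. Their median log2 fold change was 0.15. Rad50, the DNA repair gene between Il13 and Il5 that carries the locus control region, stood at 90.3 and 195 CPM with vehicle, against 220 and 191 CPM with DCA (log2 fold change 0.53 ± 0.56 SE). P4ha2, a collagen prolyl hydroxylase, stood at 24.6 and 0.99 CPM with vehicle, against 23.4 and 34.7 CPM with DCA, a value set by vehicle replicate 2. Irf1, an interferon-response factor, stood at 247 and 62.3 CPM with vehicle, against 140 and 99.4 CPM with DCA. Kif3a, Fnip1, Uqcrq, and Septin8 had log2 fold changes of 0.29, −0.50, 0.22, and 0.08.

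**Figure D4:**
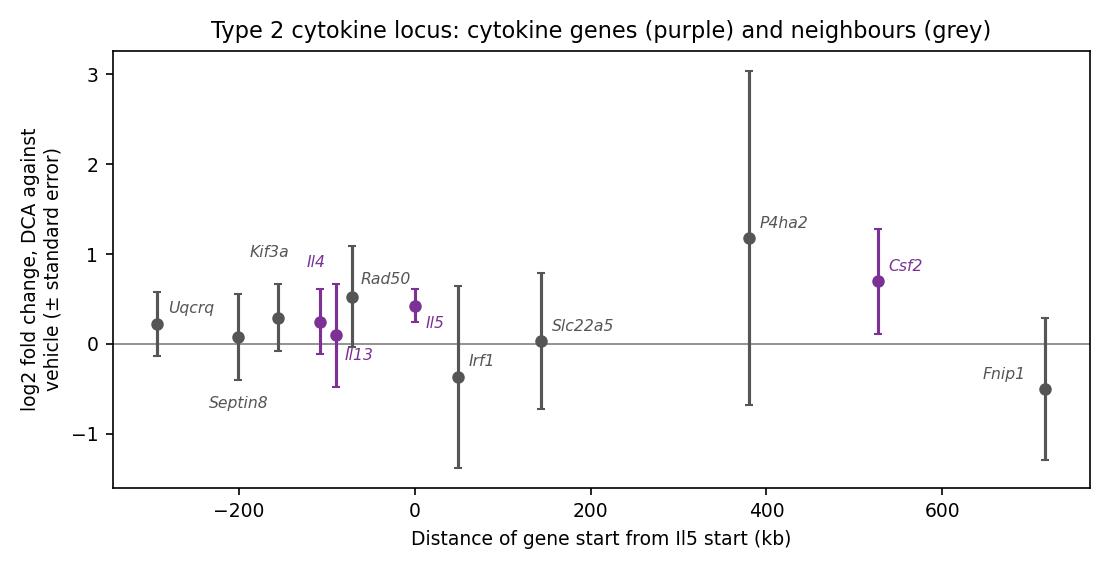
The horizontal axis gives the distance in kb of each gene's start from that of Il5 along chromosome 11, and the vertical axis the log2 fold change of DCA against vehicle with ± 1 standard error. The fold change is the edgeR estimate, and the error is that of the difference of mean log2(CPM + 1). Cytokine genes are purple and tested neighbours grey. Of the genes shown, Il5 has the narrowest error, and the error bar of every tested neighbour crosses 0.

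The receptors for these cytokines were read next, since several act back on ILC2s. Of 20 receptor genes listed, 14 were tested, 0 passed an adjusted p of 0.05 in edgeR, and 2 had an unadjusted p under 0.05, both higher with DCA, where the share of all genes was 4.27%. Both DCA libraries lay above both vehicle libraries for 5 of the 14 (18.6% of all genes) and below for 2 (14.7% of all genes), and the median log2 fold change was 0.05. The IL-10 receptor chain Il10ra had 0 and 33 counts in the vehicle libraries and 764 and 6563 counts in the DCA libraries, or 0 and 1.26 CPM against 23.6 and 27.3 CPM. Il10ra averaged 0.630 CPM with vehicle and 25.4 CPM with DCA, and so passed the filter only through its DCA libraries. Its place in the counts above thus leans on the group where it was high. Its edgeR adjusted p was 0.999 with the filter and 0.00140 with no filter on low counts, and its DESeq2 adjusted p was 0.0181. Il2ra, the high-affinity chain of the receptor for the IL-2 in the culture, stood at 1074 and 1230 CPM with vehicle, against 1613 and 1584 CPM with DCA (log2 fold change 0.47 ± 0.10 SE). Its unadjusted p was under 0.05 here and in 4 of 9 alternatives run on all 4 libraries.

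Il2rb stood at 145 and 135 CPM with vehicle, against 263 and 153 CPM with DCA, Il10rb at 82.2 and 89.9 against 123 and 111 CPM, and the shared chain Il2rg at 1236 and 1279 against 1638 and 1438 CPM. All 3 were higher in both DCA libraries, with an unadjusted edgeR p above 0.05. Il9r, the IL-9 receptor, went the other way from its ligand, at 62.1 and 65.4 CPM with vehicle, against 45.9 and 46.4 CPM with DCA (log2 fold change −0.47 ± 0.04 SE). Its unadjusted edgeR p was 0.170, and p was under 0.05 in 0 of 9 alternatives run on all 4 libraries. The small SE reflects only how close the 2 libraries of each group lay. Csf2rb2 stood at 40.99 and 27.5 CPM with vehicle, against 15.1 and 19.8 CPM with DCA, and its near-identical copy Csf2rb at 344 and 149 against 180 and 212 CPM, so the split of reads between them is uncertain. Il4ra stood at 252 and 144 CPM with vehicle, against 169 and 141 CPM with DCA. Il5ra, Il13ra2, Il6ra, and Erbb4 had 0 counts in every library.

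For Areg, the other EGF family ligands and the proteins that release them from the membrane were listed. Of 11 listed, 6 were tested, 0 passed an adjusted p of 0.05 in edgeR, 1 had an unadjusted p under 0.05 (4.27% of all genes), and the median log2 fold change was −0.70. Adam17, the sheddase that cleaves amphiregulin, stood at 76.9 and 47.1 CPM with vehicle, against 28.6 and 30.7 CPM with DCA. Both DCA libraries were lower, with a log2 fold change of −1.06 ± 0.35 (SE). Rhbdf2, a partner that ADAM17 needs to reach the cell surface, stood at 43.9 and 9.43 CPM with vehicle, against 11.998 and 8.61 CPM with DCA, and Adam10 at 83.6 and 31.2 against 40.3 and 32.8 CPM, so both of those values rested on vehicle replicate 1. Rhbdf1 stood at 18.3 and 8.97 CPM with vehicle, against 12.4 and 3.81 CPM with DCA. Hbegf and Ereg were sparse, at no more than 3.30 and 1.86 CPM in any library.

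Of 38 other cytokine genes in the table, 12 were tested and 12 had no count in any library. None passed an adjusted p of 0.05 in edgeR, 2 had an unadjusted p under 0.05 (4.27% of all genes), both lower with DCA, and the median log2 fold change was −0.12. Both DCA libraries lay below both vehicle libraries for 4 of the 12 (14.7% of all genes) and above for 0 (18.6%). Il24, a cytokine of the IL-10 family whose gene lies near Il10 on chromosome 1, stood at 260 and 276 CPM with vehicle, against 151 and 123 CPM with DCA. The 2 groups were well apart, with a log2 fold change of −0.97 ± 0.15 (SE; DESeq2 adjusted p = 0.0152). Tgfb3 was sparse, with 60 and 62 counts in the vehicle libraries and 0 and 4 counts in the DCA libraries. At means of 2.00 CPM with vehicle and 0.0083 CPM with DCA, it passed the filter only through its vehicle libraries. Its place in the counts above thus leans on the group where it was high. Osm, an abundant IL-6 family cytokine, stood at 801 and 495 CPM with vehicle, against 1028 and 716 CPM with DCA, and Mif at 377 and 663 against 474 and 574 CPM, and the groups of both overlapped. Il16 stood at 92.3 and 82.7 CPM with vehicle, against 70.9 and 45.1 CPM with DCA, and Lif at 46.0 and 87.5 against 67.8 and 28.7 CPM.

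Of 24 regulators of cytokine genes, 21 were tested, 0 passed an adjusted p of 0.05 in edgeR, and 0 had an unadjusted p under 0.05 (4.27% of all genes), with a median log2 fold change of −0.12. Both DCA libraries lay above both vehicle libraries for 3 of the 21 (18.6% of all genes) and below for 3 (14.7%). Gata3, the factor whose motif was searched above, stood at 839 and 656 CPM with vehicle, against 599 and 823 CPM with DCA, with overlapping groups. Zfp36, which encodes a protein that speeds the decay of cytokine mRNAs, stood at 68.3 and 77.6 CPM with vehicle, against 49.3 and 47.0 CPM with DCA (log2 fold change −0.60 ± 0.10 SE). Batf, a factor used by cytokine-making lymphocytes, stood at 321 and 322 CPM with vehicle, against 254 and 256 CPM with DCA (log2 fold change −0.34 ± 0.01 SE). Both were lower in both DCA libraries, with an unadjusted edgeR p of 0.0873 for Zfp36 and 0.151 for Batf. Gfi1 and Stat6 rested on vehicle replicate 1, at 59.8 and 7.33 against 10.7 and 13.5 CPM and at 154 and 51.8 against 70.5 and 52.2 CPM. Nfatc3, Ets1, and Maf had log2 fold changes of −0.41, 0.21, and −0.35. With DESeq2, or with no filter in edgeR, 0 genes passed an adjusted p of 0.05 among the locus neighbours, the EGF family and shedding genes, or these regulators.

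**Figure D5:**
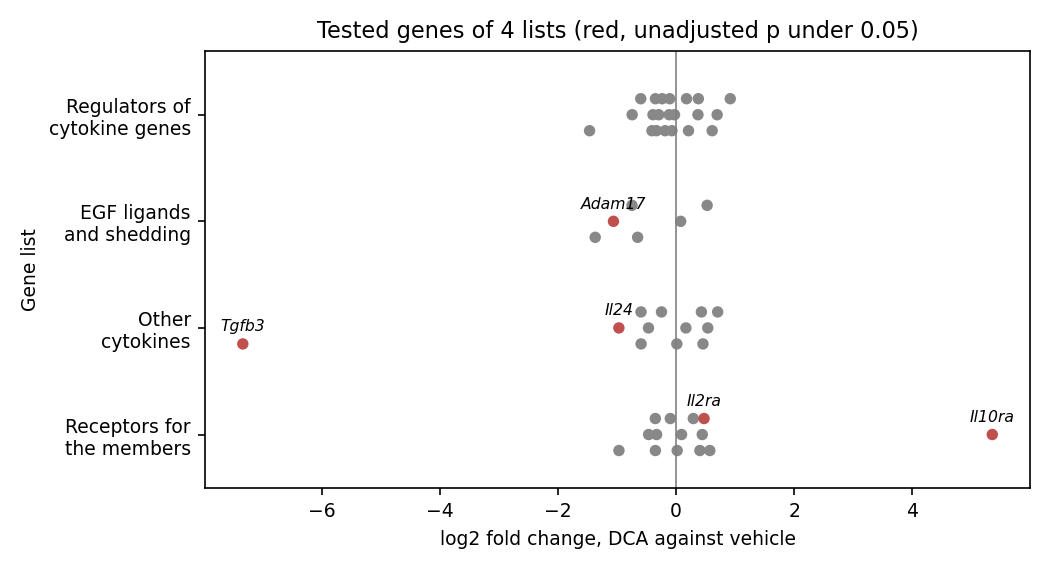
Each point is 1 tested gene of 4 lists, placed by its log2 fold change of DCA against vehicle on the horizontal axis, and red marks an unadjusted edgeR p under 0.05. Il10ra and Tgfb3 lie far out and had few or no counts in 1 group, and most other genes lie within 1 of 0.

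The genes whose levels varied most like those of Il5, Il13, and Areg over the 4 libraries were ranked by the root mean square difference of log2(CPM + 1) after centring each gene on its mean. For Il5 they were Sltm (0.0242), Chchd5 (0.0318), and Phlda1 (0.0386). For Il13 they were Rpgrip1 (0.0442), Wipf2 (0.0474), and Pbx2 (0.0485), and for Areg they were Slc19a1 (0.0229), Tubgcp4 (0.0400), and Mrpl9 (0.0487). With 4 libraries and 11184 genes, close matches of this kind describe these libraries only.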

How the data were processed

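Full-length cDNA was made with a SMART-Seq HT kit and sequenced as paired 150-base reads. Per the labels, the authors used cutadapt 1.9 for read filtering and HISAT2 2.2.1 for alignment to the mm10 genome. The deposited values are whole-number counts per gene, although the table is named for FPKM. The counting tool, its annotation and strand setting are not given in the sources used here. More genes had 2 counts than 1 count in every library. The numbers were 484 and 253 in vehicle replicate 1 and 416 and 229 in vehicle replicate 2. They were 309 and 207 in DCA replicate 1 and 303 and 207 in DCA replicate 2. This bears on how far counts stand for independent fragments. If they do not, the Wilson intervals are too narrow and the floor of 3 counts is too low. The 1275 rows without a symbol held 0.137% to 0.173% of the counts of a library and stayed in the fit under their identifiers.

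Libraries were grouped by the treatment in their labels. Counts were scaled by TMM, genes averaging 1 CPM or more over the 4 libraries were kept, and edgeR 4.0.16 in R 4.3.3 set DCA against vehicle (two-sided quasi-likelihood test, p-values adjusted by Benjamini-Hochberg over 11184 genes). Means with SDs are given for CPM after TMM scaling. Fold changes are edgeR estimates from counts. The standard error beside a fold change is that of the difference of group means of log2(CPM + 1), from its variation within the groups. That difference is another estimate and had the opposite sign for Il13 and Il6. Levels per length divide counts by the longest GENCODE transcript of each gene on a TPM scale, for the 21572 genes with a length. RefSeq exonic length had been planned, but the RefSeq table used here gives only gene spans. The test was checked on simulated counts.

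The labels give replicate numbers but do not say whether these pair the libraries. Deviations of same-numbered libraries from their group means correlated at 0.020 across genes. With 2 libraries per group this cannot show whether they were paired. Alternatives were scaling by total counts or by median of ratios, no filter, a mean of 5 CPM or more, filterByExpr, the replicate block, DESeq2 1.42.0, limma 3.58.1 on log2(CPM + 1), DCA replicate 2 thinned at random to 31501109 counts, each library left out, and shares from raw counts. Shares per union exon length were added after seeing the data. The 10 genes and the gene lists were chosen with earlier results of these data known. Of the lists, up to 5 genes with the smallest p and the 4 with the highest mean CPM were named. Klrg1, Il1rl1, Il9r, and the genes in the closing section other than the cytokines were named after their values had been seen. The genes most like Il5, Il13, and Areg were the 3 with the smallest difference in profile.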

Additional observations from a re-analysis of the deposited data

How the results depend on the processing

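No gene passed an adjusted p of 0.05 in edgeR, where 478 had an unadjusted p under 0.05. With no filter 36 of 17706 genes passed, and with DESeq2 126 of the 11184 filtered genes passed. Il9 was the only cytokine gene among them in each case. DESeq2 tested 8 of the 10 cytokine genes, as Il2 and Il3 lay under the filter. Leaving out 1 library gave between 0 and 20 genes, the 20 without vehicle replicate 1, and 0 cytokine genes. The sign turned for Il13 with the replicate block (−0.012), with limma on log2(CPM + 1) (−0.012), and without DCA replicate 2, its leave-one-out values running from −0.58 to 0.55 on the log2 scale. It turned for Il4 without DCA replicate 2, with a range of −0.078 to 0.51. For Il6 it turned with the replicate block (0.63) and with limma (0.23), and its leave-one-out values ran from −3.21 to 4.82, with 0.10 without DCA replicate 1. The limma fit compares means of log2 values, whereas the edgeR fit with no block compares group levels of counts, so their signs can differ. What set libraries of 1 group so far apart was not tested. Il5, Il9, Il10, Csf2, and Areg kept their sign in all 9 alternatives on 4 libraries and with each library left out. Il9 and Il10 had an unadjusted p under 0.05 in all 9, with log2 fold changes of 1.46 to 1.54 and of −0.65 to −0.61. With 1 library left out, that p was above 0.05 for Il9 without DCA replicate 2 (log2 fold change 1.09) and for Il10 without vehicle replicate 2 (−0.42), DCA replicate 1 (−0.51), or DCA replicate 2 (−0.75).

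With the replicate number as a block, 0 of 11184 genes passed an adjusted p of 0.05 in edgeR. At an unadjusted p under 0.05 there were 450 of the 11184, among them 5 of the 8 cytokine genes tested. As the labels do not say whether the numbers mark pairs, this block stands as an alternative.

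From raw counts not divided by length, the share of Il5 was 81.5% with vehicle and 84.4% with DCA, that of Il9 2.58% and 5.39%, and that of Il4 1.64% and 1.47%. On that scale Il13 took 2.62% and Areg 5.14% with vehicle, and Csf2 took 1.16% with DCA. Per union exon length, Il4 took 2.34% with vehicle and 2.02% with DCA, and Areg 5.94% with vehicle. Under each of these scales the Il9 share was higher with DCA and those of Areg and Il10 were lower. The scales use the same counts and differ only by a fixed factor per gene, so this is not an independent check.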

Other observations

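The genes most like Il9 over the 4 libraries, by the same root mean square difference of centred log2(CPM + 1), were Marcks (0.0831), Nat8f1 (0.0856), and Dand5 (0.101). This ranking was added after the Il9 values had been seen. Marcks, which encodes a substrate of protein kinase C, stood at 7.21 and 17.9 CPM with vehicle, against 28.4 and 42.3 CPM with DCA. Nat8f1 and Dand5 were sparse, at no more than 4.25 and 5.20 CPM in any library.

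The receptor for IL-7, another cytokine of the culture, was also read among the ILC2 markers. Il7r stood at 373 and 350 CPM with vehicle, against 582 and 461 CPM with DCA, higher in both DCA libraries. Icos and Id2, both abundant in ILC2s, varied little, at 3320 to 3582 CPM and at 2811 to 3102 CPM over the 4 libraries. Cytokines of type 3 cells appeared at trace levels in the DCA libraries. Il17a stood at 1.48 and 0 CPM and Il17f at 2.04 and 0.777 CPM, with 0 counts of either in the vehicle libraries, beside 0 counts of Il23r and Il22 in any library.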
